A study of Mus musculus with 16 samples.

Results

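The forkhead (Fox) transcription factor genes of the mouse were examined for 3 histone marks in sorted skin cells. The members are 38 genes named by symbol, among them Foxc1, Foxn1, Foxi3 and Foxp1 of the hair follicle, beside 22367 protein-coding genes of the annotation as a whole. Of the 38 genes, 36 were found under their present symbol and 1 (Foxf1) under an older one, while 1 (Foxl1) was found as an entry that the annotation classes as a pseudogene. A member was described by the peaks within 3000 bp of its mm9 gene start, called the start window here, and by the peaks over its gene body. For each mark the covered share of the start window is given, in percent, together with the score that the authors' peak caller gave the best peak. This score rises as the p-value of the peak falls (a p-value of 1e-05 gives 50.0), and it cannot be compared between lists of different depth.

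Fox proteins share a winged-helix DNA-binding domain, the forkhead box, and individual members specify organs in the embryo or steer the cell cycle and metabolism in the adult. In the skin, Foxc1 and Foxp1 are known to restrain hair follicle stem cells, Foxi3 acts in hair placodes, and loss of Foxn1 gives the nude mouse its defective hair shafts. H3K4me3 marks the starts of active and poised genes, H3K27me3 is laid down by Polycomb complexes at silent developmental genes, and H3K9me3 is best known from heterochromatin.

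Chromatin was taken from wild-type CD1 x FVB mice, which the sample labels give as male, at PD22 to PD25 (early anagen, EA) or PD38 to PD44 (late catagen, LC), with 15 to 20 mice pooled for each population. HFSCs were the CD34+ and α6-integrin+ cells of the bulge, and non-HFSCs were the CD34- and α6-integrin+ cells sorted beside them, which hold mostly epidermis and lower outer root sheath. The 16 samples are 4 populations, each with 3 marks and an IgG background sample. They are named EA-HFSCs and LC-HFSCs for the stem cells, and non-EA-HFSCs with non-LC-HFSCs for the other cells, and values listed without names below follow this order. The authors pooled replicates before calling peaks against IgG, so that 12 lists exist with 1 list per population and mark. Differences between populations could therefore not be set against replicate error, and no p-value is given. Intervals below are 95% Wilson intervals, which cover counting error only and treat genes as independent, although they are not. The lists do not hold read numbers, so the reads behind a single peak are unknown, and the study's methods state that more reads were used for LC-HFSCs than for EA-HFSCs. The study states that its reads did not saturate peak calling for H3K27me3 and H3K9me3, so a missing peak of these marks means only that none was called. The lists differ greatly in length. H3K4me3 has 21482 peaks in EA-HFSCs, 14718 in LC-HFSCs, 24498 in non-EA-HFSCs and 18996 in non-LC-HFSCs. For H3K27me3 the numbers are 25534, 1909, 17488 and 15273 in the same order, and for H3K9me3 they are 42277, 1414, 17873 and 18236. The short LC-HFSC lists of H3K27me3 and H3K9me3 move with every result on LC-HFSCs given here, so counts were also taken with equal list lengths, in which every list of a mark was cut to as many of its top-scoring peaks as the LC-HFSC list holds. A peak in all cells and a peak in a subset of cells cannot be told apart in these populations, nor can 2 marks on the same cells and on different cells.

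The labels were set against marker genes. Cd34, the surface marker of the sort, had H3K4me3 at its start in EA-HFSCs (62.5% of the window) and LC-HFSCs (61.7%) and no such peak in the non-HFSCs, where H3K27me3 covered 64.8% and 29.2%. Of 9 bulge stem cell markers, 8 had H3K4me3 in EA-HFSCs, 8 in LC-HFSCs, 7 in non-EA-HFSCs and 6 in non-LC-HFSCs, and H3K27me3 was called at 0, 0, 5 and 6 of them. Itga6, which encodes the integrin used in all 4 sorts, and Trp63 of basal keratinocytes had no peak at their annotated gene start in any list, whereas Krt5 and Krt14 had H3K4me3 in all 4 populations. Among markers of other cells, H3K4me3 was called at 0 of 4 leukocyte genes in every population and at 1 of 3 endothelial genes (Kdr, with H3K27me3 in the same populations). It was also called at 3, 3, 3 and 2 of 5 dermal fibroblast genes and at 3, 3, 3 and 2 of 5 melanocyte genes. Of all protein-coding genes, 60.4, 53.9, 59.6 and 56.6% had H3K4me3 and 13.0, 3.39, 15.6 and 11.9% had H3K27me3, so the fibroblast and melanocyte counts are near the share of all genes. The part of such cells in the results was not tested.

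The sequences just upstream of 5 members are shown because these genes stand for the patterns described next: Foxc1 and Foxn1 for hair follicle genes with H3K4me3 in every population, Foxf2 for starts with all 3 marks in EA-HFSCs, Foxb1 for H3K27me3 and H3K9me3 with no H3K4me3 there, and Foxo1 for broadly expressed members with no H3K27me3. Each run is the 200 bases before the annotated gene start in mm9, written 5′ to 3′ on the strand of the gene, with CpG dinucleotides in capitals. They lie at chr13:31898315-31898514 (Foxc1, plus strand), chr11:78200061-78200260 (Foxn1, minus strand), chr13:31717485-31717684 (Foxf2, plus strand), chr9:69608748-69608947 (Foxb1, minus strand) and chr3:52072059-52072258 (Foxo1, plus strand).
Foxc1: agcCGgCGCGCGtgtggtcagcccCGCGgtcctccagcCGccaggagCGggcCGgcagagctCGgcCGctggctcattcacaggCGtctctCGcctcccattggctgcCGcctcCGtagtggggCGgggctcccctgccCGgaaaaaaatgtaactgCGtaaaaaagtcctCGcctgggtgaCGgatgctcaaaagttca
Foxn1: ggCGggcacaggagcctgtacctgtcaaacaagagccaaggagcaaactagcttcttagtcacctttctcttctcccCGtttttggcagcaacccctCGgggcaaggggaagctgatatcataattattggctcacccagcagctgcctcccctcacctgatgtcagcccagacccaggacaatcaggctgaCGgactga
Foxf2: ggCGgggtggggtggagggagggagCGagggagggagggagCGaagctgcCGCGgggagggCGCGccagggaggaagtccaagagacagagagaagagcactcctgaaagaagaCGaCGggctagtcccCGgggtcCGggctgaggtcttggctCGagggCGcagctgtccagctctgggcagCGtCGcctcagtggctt
Foxb1: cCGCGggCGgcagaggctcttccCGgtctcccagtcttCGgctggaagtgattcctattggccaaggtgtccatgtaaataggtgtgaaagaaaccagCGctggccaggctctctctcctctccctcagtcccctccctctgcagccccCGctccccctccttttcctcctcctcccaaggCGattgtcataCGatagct
Foxo1: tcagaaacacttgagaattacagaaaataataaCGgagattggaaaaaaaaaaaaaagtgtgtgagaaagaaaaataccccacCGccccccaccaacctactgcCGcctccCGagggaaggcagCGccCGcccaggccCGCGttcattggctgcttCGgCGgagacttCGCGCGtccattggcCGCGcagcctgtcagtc
The runs hold 20 CpG dinucleotides for Foxc1, 15 for Foxf2, 15 for Foxo1, 9 for Foxb1 and 4 for Foxn1.

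H3K4me3 was called at the start of most Fox genes and H3K27me3 at a share several times that of all genes. H3K4me3 was at 30 of 38 Fox starts in EA-HFSCs (78.9%, interval 63.7 to 88.9, beside 60.4% of all protein-coding genes), at 20 in LC-HFSCs (52.6%, 37.3 to 67.5, beside 53.9%), at 28 in non-EA-HFSCs (73.7%, 58.0 to 85.0, beside 59.6%) and at 25 in non-LC-HFSCs (65.8%, 49.9 to 78.8, beside 56.6%). The share of all genes lay outside the interval of the family in EA-HFSCs alone for this mark. When lists were cut to equal length, H3K4me3 was at 23 Fox starts in EA-HFSCs, 20 in LC-HFSCs, 21 in non-EA-HFSCs and 20 in non-LC-HFSCs, beside 56.3, 53.9, 54.3 and 53.7% of all genes, so that the EA-HFSC share was then near that of all genes. H3K27me3 was at 24 Fox starts in EA-HFSCs (63.2%, 47.3 to 76.6, beside 13.0% of all genes), at 14 in LC-HFSCs (36.8%, 23.4 to 52.7, beside 3.39%), at 20 in non-EA-HFSCs (52.6%, 37.3 to 67.5, beside 15.6%) and at 23 in non-LC-HFSCs (60.5%, 44.7 to 74.4, beside 11.9%). Here the share of all genes was below the interval of the family in all 4 populations. With equal list lengths the counts were 19, 14, 16 and 19, beside 4.69, 3.39, 5.75 and 4.88% of all genes, and the LC-HFSC count fell from 14 to 8 when only scores of 100 or more were taken. No share of all genes is given for scores of 100 or more, here or below.

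H3K9me3 was at 26 Fox starts in EA-HFSCs (68.4%, 52.5 to 80.9, beside 45.2% of all genes), at 0 in LC-HFSCs (upper bound 9.18%, beside 0.295%), at 3 in non-EA-HFSCs (7.89%, 2.72 to 20.8, beside 2.80%) and at 13 in non-LC-HFSCs (34.2%, 21.2 to 50.1, beside 11.6%). The share of all genes was below the interval of the family in EA-HFSCs and non-LC-HFSCs. The counts with equal list lengths were 16, 0, 0 and 2, beside 3.27, 0.295, 0.411 and 0.966% of all genes. H3K4me3 and H3K27me3 were called together at 18 Fox starts in EA-HFSCs (47.4%, beside 7.90% of all genes), 6 in LC-HFSCs (15.8%, beside 1.01%), 14 in non-EA-HFSCs (36.8%, beside 9.48%) and 14 in non-LC-HFSCs (36.8%, beside 5.63%). These numbers fell, with equal list lengths, to 8, 6, 6 and 6, beside 2.31, 1.01, 2.24 and 1.55% of all genes, and taking only scores of 100 or more left 0 in LC-HFSCs and 8 in non-LC-HFSCs. Together means here that both marks lay in the same window. In the deposited lists H3K27me3 lay over at least 90% of the H3K4me3 cover at 16 of 18, 4 of 6, 11 of 14 and 9 of 14 of these starts. The 2 marks shared no base at Foxp2 in LC-HFSCs, Foxq1 in non-EA-HFSCs and Foxa3 in non-LC-HFSCs. All 3 marks were called at 16 starts in EA-HFSCs (42.1%, 27.9 to 57.8, beside 6.30% of all genes). The other EA-HFSC starts held H3K4me3 alone (6 genes, 15.8%, beside 18.0% of all genes), H3K4me3 and H3K9me3 (6, 15.8%, beside 34.5%), H3K27me3 and H3K9me3 (4, 10.5%, beside 2.79%), H3K4me3 and H3K27me3 (2, 5.26%, beside 1.60%), H3K27me3 alone (2, 5.26%, beside 2.36%) or no peak (2, 5.26%, beside 32.8%).

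**Figure D1:**
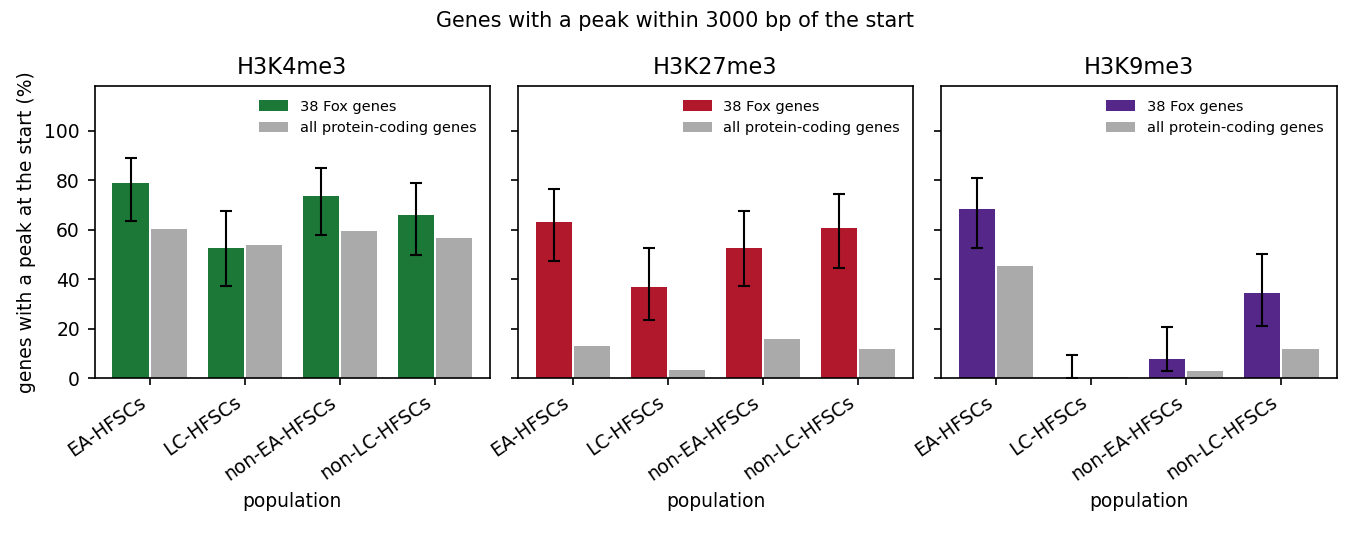
Bars give the percentage of genes with a peak within 3000 bp of the start (vertical axis) in each population, for the 38 Fox genes (coloured, error bars are 95% Wilson intervals) and for all protein-coding genes (grey), with 1 panel per mark. The H3K27me3 bars of the Fox genes stand at 63.2, 36.8, 52.6 and 60.5%, and the grey bars beside them at 13.0, 3.39, 15.6 and 11.9%.

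The H3K27me3 peaks at Fox starts were wide. In EA-HFSCs the median covered share of the window was 100% over the 24 genes with a peak, beside 58.1% over all 2918 genes with one, and the median width of the best peak was 21117 bp beside 3522 bp. The widest, at Foxd2 and Foxe3, spanned 47504 bp. In LC-HFSCs the Fox starts with a peak had a median cover of 76.4% and a median width of 7761 bp, beside 50.3% and 3620 bp. The windows covered to at least 90% by H3K27me3 numbered 19 in EA-HFSCs, 6 in LC-HFSCs, 16 in non-EA-HFSCs and 16 in non-LC-HFSCs. No share of all genes is given at this cover, so these counts describe the family alone. In EA-HFSCs the best H3K27me3 peak of the median Fox gene ranked within the top 1.29% of its list by score, and that of the median gene among all genes with a peak within the top 13.5%. For H3K4me3 the order was the other way round, with the median Fox gene within the top 48.0% of the EA-HFSC list and the median of all genes within the top 28.9%. The value 3100 recurs at 590 peaks of that list and at 2701 of the non-EA-HFSC list, so it does not order the strongest H3K4me3 peaks.

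**Figure D2:**
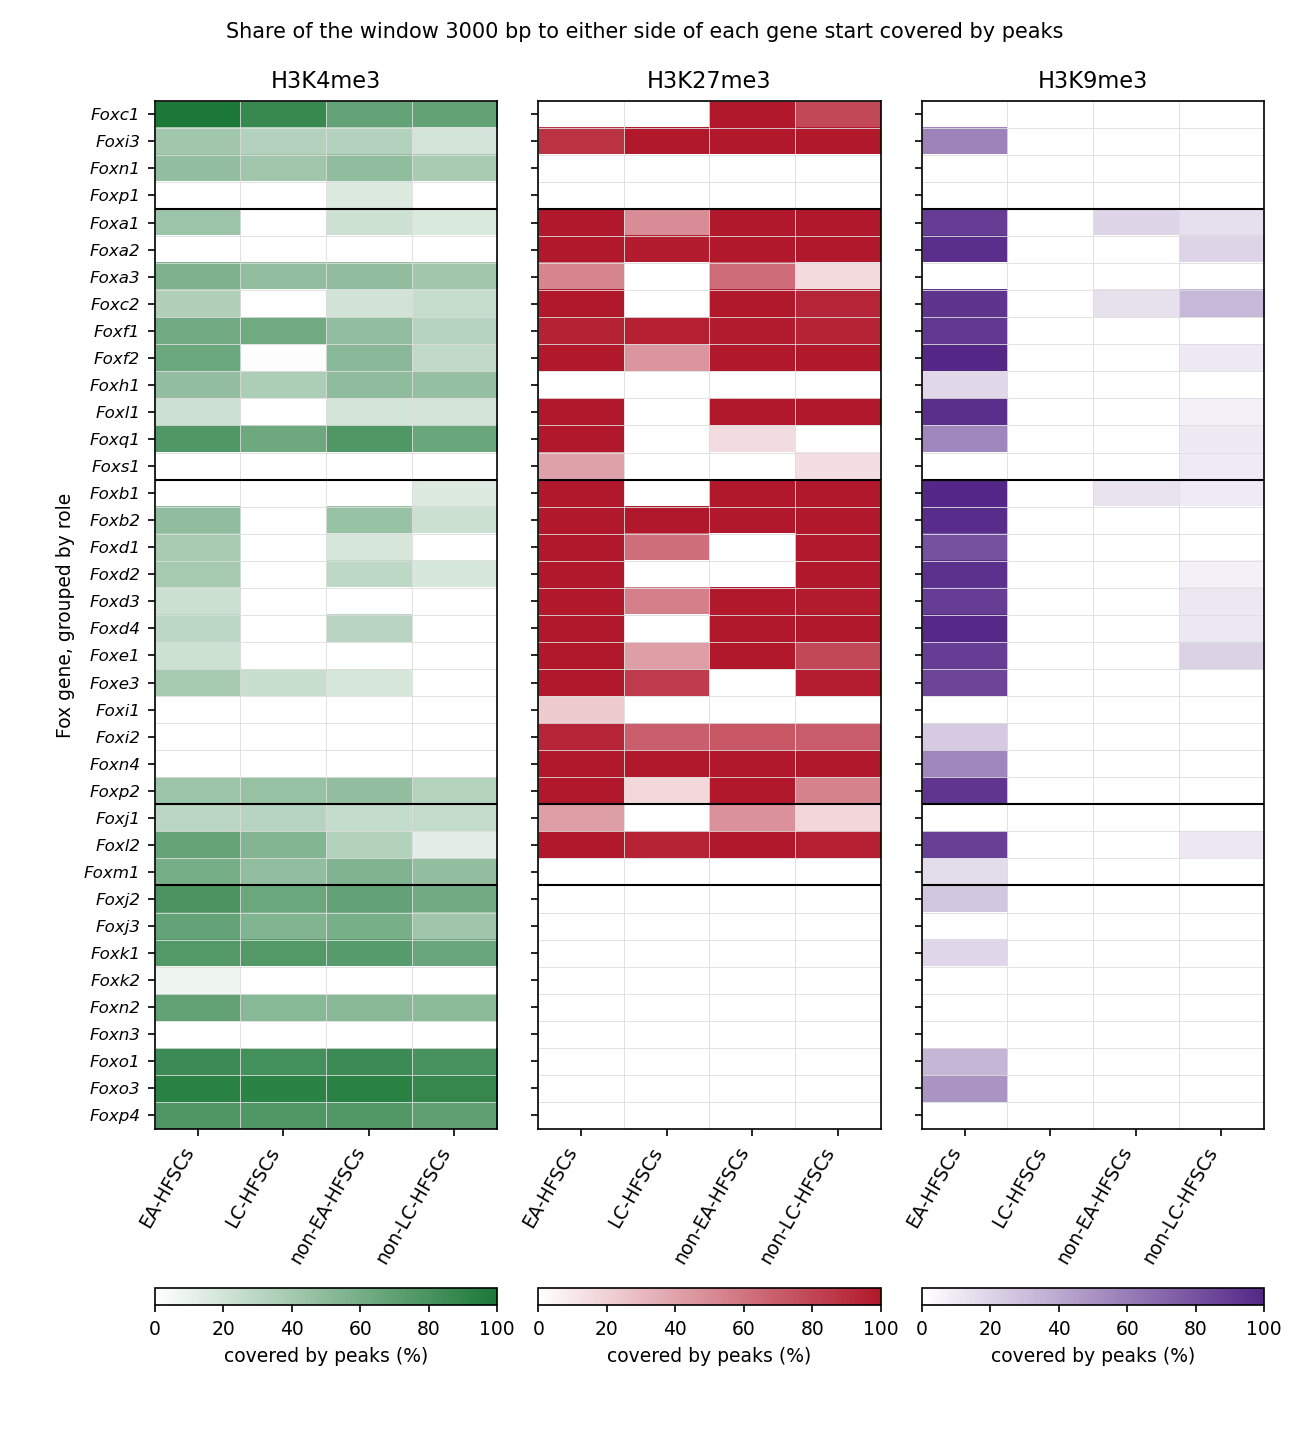
Colour gives the percentage of the window 3000 bp to either side of each gene start that was covered by peaks, with 1 row per Fox gene (grouped by role, black lines between groups), 1 column per population and 1 panel per mark. White is no peak. The bottom 9 rows, the broadly expressed genes, have no H3K27me3 in any population, and the LC-HFSC column of H3K9me3 is empty for all 38 genes.

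The hair follicle genes did not share a pattern. Foxc1, at chr13:31898515-31902504 on the plus strand, had the widest H3K4me3 peak of any Fox gene in EA-HFSCs (13875 bp), in LC-HFSCs (9434 bp) and in non-EA-HFSCs (8064 bp). H3K4me3 covered 100% of its window in EA-HFSCs (score 3100), 86.9% in LC-HFSCs (1273), 67.9% in non-EA-HFSCs (3071) and 68.7% in non-LC-HFSCs (2067). The highest cover was thus in the 2 HFSC populations. H3K27me3 was not called at Foxc1 in either HFSC population, where the nearest peak lay 160525 bp from the start in EA-HFSCs and, in LC-HFSCs, 174237 bp from it. It covered 100% of the window in non-EA-HFSCs (score 83.8, peak width 16968 bp) and 78.8% in non-LC-HFSCs (256). Foxc1 was the 1 Fox gene with H3K27me3 in both non-HFSC populations and in no HFSC population, a pattern of 461 genes (2.06%) in all. With equal list lengths its H3K27me3 peak was called in neither non-HFSC population, and the pattern was then not seen. No H3K9me3 was called there in any population.

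Foxi3, at chr6:70906525-70911060 on the plus strand, held both H3K4me3 and H3K27me3 in all 4 populations. H3K4me3 covered 40.8% of its window in EA-HFSCs, 33.2% in LC-HFSCs, 33.2% in non-EA-HFSCs and 19.5% in non-LC-HFSCs. H3K27me3 covered 88.0%, 100%, 100% and 100% in the same order, and H3K9me3 covered 57.4% in EA-HFSCs alone. The H3K27me3 scores were 1123, 47.5, 1184 and 1247. The LC-HFSC peak was in the lower part of its list, where 76.7% of peaks scored as high or higher, and was not called with a score of at least 50.

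Foxn1, at chr11:78171079-78200060 on the minus strand, had H3K4me3 in every population and neither of the other marks at its start. The cover was 47.2% in EA-HFSCs, 41.5% in LC-HFSCs, 48.5% in non-EA-HFSCs and 37.9% in non-LC-HFSCs. The scores were 359, 53.4, 1409 and 365, so that the LC-HFSC peak was close to the lowest score of its list (50.0).

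Foxp1, at chr6:98875332-99216526 on the minus strand, showed the limit of a single annotated start. At the outermost start H3K4me3 was called in non-EA-HFSCs alone (15.6% of the window, score 171). The gene has 10 annotated transcript starts, and at one that lies 238340 bp inside the gene H3K4me3 was called in all 4 populations, with scores of 848 in EA-HFSCs, 440 in LC-HFSCs, 1543 in non-EA-HFSCs and 1141 in non-LC-HFSCs. No H3K27me3 peak lay at its start or over its body in any population.

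**Figure D3:**
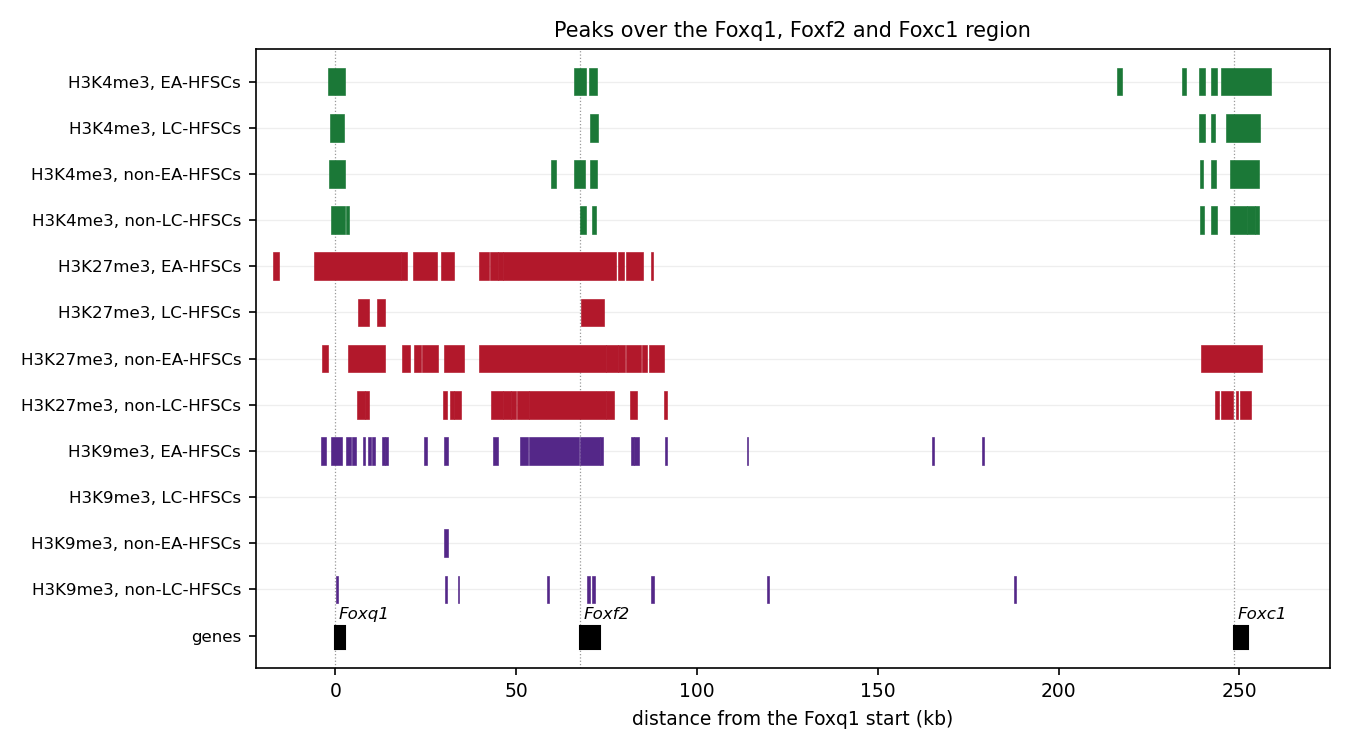
Blocks are peaks drawn to scale along the region that holds Foxq1, Foxf2 and Foxc1, with the distance from the Foxq1 start in kb on the horizontal axis and 1 row per mark and population. At Foxc1 (right) H3K27me3 blocks appear in the 2 non-HFSC rows only, and the H3K4me3 block of EA-HFSCs is the widest at 13875 bp. From the start of Foxq1 to the end of Foxc1, H3K27me3 covers 74380 bp in the EA-HFSC row beside 11541 bp in the LC-HFSC row.

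Genes known to act beside these factors in the hair follicle were counted in the same way, from a list of 14. H3K4me3 was at 13 of them in EA-HFSCs, 12 in LC-HFSCs, 13 in non-EA-HFSCs and 12 in non-LC-HFSCs, and H3K27me3 was at 4, 0, 7 and 9. H3K9me3 was at 6, 0, 0 and 1. The shares of all protein-coding genes in the same order are 60.4, 53.9, 59.6 and 56.6% for H3K4me3, 13.0, 3.39, 15.6 and 11.9% for H3K27me3 and 45.2, 0.295, 2.80 and 11.6% for H3K9me3. As at Foxc1, H3K27me3 was in both non-HFSC populations and in no HFSC population at 5 of the 14, namely Fgf18 (a growth factor of resting follicles), Lhx2, Sox9 and Tbx1 (transcription factors of bulge cells) and Msx2 (a homeobox factor of the hair shaft), beside 2.06% of all genes. Lhx2, Sox9 and Tbx1 are also among the bulge stem cell markers counted above, as are Nfatc1 and Tcf7l1 of the 14, so the 2 lists are not separate observations. With equal list lengths Lhx2 and Tbx1 kept the pattern, Bmp6 gained it, and 0.662% of all genes had it. Lhx2, for example, had H3K4me3 over 100% of its window in EA-HFSCs, 57.1% in LC-HFSCs, 39.2% in non-EA-HFSCs and none in non-LC-HFSCs, and H3K27me3 over 98.9% in non-EA-HFSCs and 91.9% in non-LC-HFSCs. Nfatc1, a quiescence factor of the bulge, had H3K4me3 over at least 97.9% of its window in all 4 populations and no H3K27me3.

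The members that act in endoderm and mesoderm (10 genes) held H3K4me3 together with H3K27me3 at 7 genes in EA-HFSCs, 2 in LC-HFSCs, 7 in non-EA-HFSCs and 6 in non-LC-HFSCs. H3K4me3 was at 8, 5, 8 and 8 of them, H3K27me3 at 9, 4, 8 and 8, and H3K9me3 at 8, 0, 2 and 7. Against the shares of all genes given above, H3K4me3 at 5 to 8 of 10 is not far from 53.9 to 60.4%, and the H3K27me3 counts lie above 3.39 to 15.6%. For the 2 marks together the shares of all genes are 7.90, 1.01, 9.48 and 5.63%. For H3K9me3 they are 45.2, 0.295, 2.80 and 11.6%, so 0 in LC-HFSCs is near the background. Foxa1, a pioneer factor of liver and gut, had H3K4me3 over 43.3% of its window in EA-HFSCs, no peak in LC-HFSCs, 21.7% in non-EA-HFSCs and 16.3% in non-LC-HFSCs. Its H3K27me3 covered 100, 49.5, 100 and 99.4%, and its H3K9me3 covered 89.4% in EA-HFSCs, 19.4% in non-EA-HFSCs and 14.2% in non-LC-HFSCs. Foxa2, its close relative, had no H3K4me3 in any population and H3K27me3 over 100, 97.9, 100 and 100%, with H3K9me3 over 96.0% in EA-HFSCs and 19.9% in non-LC-HFSCs. Foxa3, the third of these relatives, differed from both, with H3K4me3 over 56.6, 47.7, 48.2 and 41.1% and narrower H3K27me3 over 52.5% in EA-HFSCs, 63.1% in non-EA-HFSCs and 16.0% in non-LC-HFSCs. The start of Sympk lies 839 bp from that of Foxa3, so the H3K4me3 there cannot be assigned to 1 of the 2 genes.

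Foxf1 and Foxf2, factors of gut mesenchyme, carried H3K4me3 and H3K27me3 in all 4 populations. At Foxf1 H3K27me3 covered 95.2% in EA-HFSCs, 96.7% in LC-HFSCs, 97.8% in non-EA-HFSCs and 94.7% in non-LC-HFSCs, and H3K4me3 covered 61.4, 62.6, 47.5 and 32.3%. At Foxf2 H3K27me3 covered 100, 45.6, 100 and 100%, and the H3K4me3 cover of 64.2, 1.4, 51.4 and 27.4% shows that the LC-HFSC peak only touched the window. H3K9me3 in EA-HFSCs covered 91.4% at Foxf1 and 99.1% at Foxf2, and the Foxf2 start had a further small peak in non-LC-HFSCs (9.88%).

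Foxc2, known from lymphatic vessels, and Foxl1, a factor of gut mesenchyme, had no peak of any mark in LC-HFSCs. H3K27me3 covered 99.4% of the Foxc2 window in EA-HFSCs, 100% in non-EA-HFSCs and 94.1% in non-LC-HFSCs, and 100% of the Foxl1 window in each of the 3. H3K4me3 covered 34.1, 20.0 and 25.2% at Foxc2 and 22, 19.4 and 19.7% at Foxl1 in those populations. H3K9me3 in EA-HFSCs covered 93.7% at Foxc2 and 95.8% at Foxl1.

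Foxq1, which is altered in satin mice with abnormal hair shafts, had strong H3K4me3 in all 4 populations (76.9, 63.8, 76.2 and 65.5%, scores 2640, 594, 3100 and 3100). Its H3K27me3 covered the whole window in EA-HFSCs (score 157), was not called in LC-HFSCs or non-LC-HFSCs and covered 15.0% in non-EA-HFSCs, while H3K9me3 covered 55.8% in EA-HFSCs. Another protein-coding gene starts 1163 bp from Foxq1. Foxh1, a Smad partner in nodal signalling, had H3K4me3 over 47.1, 36.2, 48.9 and 46.8%, H3K9me3 over 18.3% in EA-HFSCs and no H3K27me3, with the start of Ppp1r16a 1667 bp away. The H3K4me3 peaks did not reach the Foxh1 start but lay 859, 828, 648 and 679 bp from it. No peak lay over its body in any list, so the H3K4me3 cannot be assigned to Foxh1. Foxs1 had no H3K4me3 in any list, and its H3K27me3 covered 40.4% in EA-HFSCs and 14.4% in non-LC-HFSCs.

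The members that act in the nervous system, sense organs and ectoderm (12 genes) all had H3K27me3 in EA-HFSCs. It was at 12 of them in EA-HFSCs, 8 in LC-HFSCs, 8 in non-EA-HFSCs and 11 in non-LC-HFSCs, while H3K4me3 was at 8, 2, 6 and 4, and H3K9me3 at 11, 0, 1 and 5. Of all genes, 13.0, 3.39, 15.6 and 11.9% had H3K27me3, 60.4, 53.9, 59.6 and 56.6% had H3K4me3 and 45.2, 0.295, 2.80 and 11.6% had H3K9me3, so the H3K4me3 counts in EA-HFSCs and non-EA-HFSCs are near the background. Foxb1, a factor of the hypothalamus, had H3K27me3 over 100% of its window in EA-HFSCs and in both non-HFSC populations, and no peak of any mark in LC-HFSCs. H3K9me3 covered 100% of the same window in EA-HFSCs, the highest cover of any Fox gene for this mark, 12.9% in non-EA-HFSCs and 9.23% in non-LC-HFSCs. H3K4me3 was called there in non-LC-HFSCs alone (15.4%). Foxb2 had H3K27me3 over 100% of its window in all 4 populations, and H3K4me3 over 48.7% in EA-HFSCs, 45.2% in non-EA-HFSCs and 22.5% in non-LC-HFSCs, with H3K9me3 over 97.6% in EA-HFSCs.

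The Foxd genes had H3K27me3 over 100% of the window in EA-HFSCs at all 4 members. Foxd1, a factor of the kidney stroma, had H3K27me3 over 62.0% in LC-HFSCs, none in non-EA-HFSCs and 99.2% in non-LC-HFSCs. Foxd2 had none in LC-HFSCs or non-EA-HFSCs and 99.9% in non-LC-HFSCs. Foxd3, which specifies neural crest, had 55.1% in LC-HFSCs, 100% in non-EA-HFSCs and 98.3% in non-LC-HFSCs, and Foxd4 had none, 100% and 100%. In EA-HFSCs H3K4me3 covered 38.1% at Foxd1, 39.3% at Foxd2, 22.5% at Foxd3 and 29.2% at Foxd4, and no Foxd gene had H3K4me3 in LC-HFSCs. H3K9me3 covered between 80.3% (Foxd1) and 98.6% (Foxd4) of these 4 windows in EA-HFSCs.

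Foxe1, required for the thyroid, and Foxe3, required for the lens, had H3K27me3 over 100% of the window in EA-HFSCs. In LC-HFSCs the cover was 41.9% at Foxe1 and 84.0% at Foxe3. Foxe1 had 100% in non-EA-HFSCs and 78.9% in non-LC-HFSCs, where Foxe3 had none and 97.6%. Foxe3 had H3K4me3 in LC-HFSCs (23.9%) and not in non-LC-HFSCs, and Foxe1 had it in EA-HFSCs alone (21.7%). H3K9me3 in EA-HFSCs covered 89.7% at Foxe1 and 85.7% at Foxe3. Foxd1 and Foxe3 thus lacked an H3K27me3 start peak in non-EA-HFSCs alone, and Foxd2 lacked it there and in LC-HFSCs. Within 50000 bp to either side of the Foxd1, Foxd2 and Foxe3 starts (the last 2 are neighbours whose ranges overlap), H3K27me3 covered 8909, 16866 and 13334 bp in non-EA-HFSCs, beside 61207, 65896 and 56539 bp in EA-HFSCs and 58256, 50479 and 49070 bp in non-LC-HFSCs.

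Foxi1, a factor of the inner ear and kidney, had a single narrow H3K27me3 peak in EA-HFSCs (22.4% of the window, score 48.9) and no other start peak. Foxi2 and Foxn4, the latter known from the retina, had H3K27me3 in all 4 populations and no H3K4me3 in any. The H3K27me3 cover was 94.0, 68.9, 72.3 and 70.1% at Foxi2 and 100% in every population at Foxn4, and H3K9me3 covered 24.3% at Foxi2 and 55.6% at Foxn4 in EA-HFSCs. Foxp2, known for its part in vocal and speech circuits, had both marks in all 4 populations, with H3K4me3 over 43.1, 45.8, 46.9 and 32.8% and H3K27me3 over 100, 17.1, 100 and 53.9%. In LC-HFSCs the peaks of the 2 marks in the Foxp2 window shared no base. Its H3K9me3 covered 93.2% in EA-HFSCs.

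Foxj1, the regulator of motile cilia, had H3K4me3 over 29.7, 31.3, 25.5 and 26.2% of its window and H3K27me3 over 42.1% in EA-HFSCs, 47.6% in non-EA-HFSCs and 17.4% in non-LC-HFSCs. Foxl2, which maintains granulosa cells of the ovary, had H3K27me3 over 100, 94.6, 100 and 96.5% and H3K4me3 over 66.9, 54.0, 33.5 and 12.8%, with H3K9me3 over 88.4% in EA-HFSCs and 11.1% in non-LC-HFSCs. Foxm1, which drives genes of mitosis, had H3K4me3 over 60.1% in EA-HFSCs, 47.6% in LC-HFSCs, 55.6% in non-EA-HFSCs and 46.9% in non-LC-HFSCs, H3K9me3 over 16.3% in EA-HFSCs and no H3K27me3. The start of another protein-coding gene lies 56 bp from that of Foxm1. Of 7 genes known as Foxm1 targets, H3K4me3 was at 7, 6, 7 and 7, H3K27me3 at 0 in every population and H3K9me3 at 7, 0, 0 and 0. With 7 genes, 0 with H3K27me3 is near what the 3.39 to 15.6% of all genes would give, and beside these counts stand 60.4, 53.9, 59.6 and 56.6% of all genes for H3K4me3 and 45.2, 0.295, 2.80 and 11.6% for H3K9me3. Cenpf, a kinetochore protein gene, was the target with no H3K4me3 peak in LC-HFSCs.

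The 9 broadly expressed members had no H3K27me3 start peak in any population, which over 9 genes is near the background of 3.39 to 15.6% of all genes. H3K4me3 was at 8 of them in EA-HFSCs (beside 60.4% of all genes) and at 7 in each of the other populations (beside 53.9 to 59.6%), and H3K9me3 was at 4 in EA-HFSCs and at 0 elsewhere, beside 45.2% of all genes in EA-HFSCs. Foxo1 and Foxo3, which insulin signalling keeps out of the nucleus, had the highest H3K4me3 cover in the group. It was 85.4, 81.7, 85.2 and 80.4% at Foxo1 and 93.3, 92.2, 93.3 and 88.1% at Foxo3. H3K9me3 covered 33.6% at Foxo1 and 49.6% at Foxo3 in EA-HFSCs. Foxj2, Foxj3, Foxk1, Foxn2 and Foxp4 had H3K4me3 in all 4 populations, with a cover between 42.0% (Foxj3, non-LC-HFSCs) and 78.9% (Foxj2, EA-HFSCs), and Foxj2 and Foxk1 had H3K9me3 in EA-HFSCs (26.0 and 18.4%). Another protein-coding gene starts 892 bp from Foxj3, so its H3K4me3 cannot be assigned to 1 of the 2 genes.

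Foxk2 and Foxn3 depended on the start used. The outermost Foxk2 start was touched by H3K4me3 in EA-HFSCs alone (7.73% of the window), by the edge of a peak that lies at another annotated start 4496 bp into the gene. At that inner start H3K4me3 was called in all 4 populations, with scores of 2440, 417, 2286 and 1395. Foxn3 was the 1 member with no start peak in any of the 12 lists, but a second annotated start 56277 bp inside the gene had H3K4me3 in all 4, with scores of 1858, 762, 3003 and 3042.

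Of 12 Foxo regulators and targets, H3K4me3 was at 12, 11, 12 and 12, H3K27me3 at 0, 0, 1 and 1 and H3K9me3 at 9, 0, 1 and 5. Of all genes, H3K4me3 was at 60.4, 53.9, 59.6 and 56.6%, H3K27me3 at 13.0, 3.39, 15.6 and 11.9% and H3K9me3 at 45.2, 0.295, 2.80 and 11.6%, so 0 or 1 of 12 with H3K27me3 is near the background. Sgk1, a kinase of the insulin pathway that phosphorylates Foxo proteins, was the exception on both counts. It had no H3K4me3 in LC-HFSCs and had H3K27me3 over 61.3% in non-EA-HFSCs and 16.5% in non-LC-HFSCs.

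Dividing and quiescent HFSCs were compared through EA-HFSCs and LC-HFSCs. Of 30 Fox starts with H3K4me3 in EA-HFSCs, 20 had it in LC-HFSCs (66.7%, interval 48.8 to 80.8, beside 89.0% of all such genes). Of 24 with H3K27me3, 14 had it in LC-HFSCs (58.3%, 38.8 to 75.5, beside 25.5%). Of 26 with H3K9me3, 0 had it in LC-HFSCs (upper bound 12.9%, beside 0.425%). With equal list lengths 19 of 23 starts kept H3K4me3 (82.6%, beside 94.2% of all genes), 14 of 19 kept H3K27me3 (73.7%, beside 53.0%) and 0 of 16 kept H3K9me3 (beside 0.546%, so that 0 is near the background). The starts that then had a peak in EA-HFSCs only of the 2 were Foxa1, Foxc2, Foxd2 and Foxk2 for H3K4me3 and Foxb1, Foxc2, Foxd2, Foxd4 and Foxl1 for H3K27me3. In the lists as deposited no Fox start had a peak in LC-HFSCs that was missing in EA-HFSCs, whereas with equal list lengths 1 did (Foxe3, for H3K4me3). Of all genes with H3K4me3 in the deposited LC-HFSC list, 12028 of 12052 also had it in EA-HFSCs. For H3K27me3 it was 745 of 758 and for H3K9me3 43 of 66, so 0 of 38 Fox starts is near the background. No share of all genes is given for this direction with equal list lengths. In the deposited lists, the 10 starts with H3K4me3 in EA-HFSCs only of the 2 were Foxa1, Foxb2, Foxc2, Foxd1, Foxd2, Foxd3, Foxd4, Foxe1, Foxk2 and Foxl1, and all but Foxk2 also had H3K27me3 in EA-HFSCs. Of all 30 Fox starts with H3K4me3 in EA-HFSCs, 18 had H3K27me3 there, beside 1766 of 13508 for all genes. No such share is given for all genes with H3K4me3 in EA-HFSCs only of the 2, and a link between the marks was not tested. The 10 starts with H3K27me3 in EA-HFSCs only of the 2 were Foxa3, Foxb1, Foxc2, Foxd2, Foxd4, Foxi1, Foxj1, Foxl1, Foxq1 and Foxs1.

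The EA-HFSC scores of the H3K27me3 peaks had a median of 1538 (804 to 2523) at the 14 Fox starts that also had a peak in LC-HFSCs and of 636 (48.9 to 3100) at the 10 that did not, so the ranges overlapped. Over all genes these medians were 804 and 148. Where both populations had a peak, the EA-HFSC peaks covered more of the window at 10 of 14 starts for H3K27me3 (less at 2, Foxf1 and Foxi3, and equal at 2) and at 17 of 20 for H3K4me3. Over all genes with a peak in a population, the median cover was also higher in EA-HFSCs than in LC-HFSCs. It was 58.1 and 50.3% for H3K27me3 and 51.6 and 42.9% for H3K4me3. No count of this kind is given over all genes. In the non-HFSCs, sampled at the same ages, 24 of 28 starts with H3K4me3 at the early age had it at the late one (85.7%, 68.5 to 94.3, beside 94.3%), and 19 of 20 with H3K27me3 did (95%, 76.4 to 99.1, beside 70.9%).

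HFSCs and non-HFSCs of the same age differed at between 0 and 9 Fox starts in each direction for H3K4me3 and H3K27me3. For H3K4me3, 3 starts had a peak in EA-HFSCs and not in non-EA-HFSCs (Foxd3, Foxe1 and Foxk2, beside 2.18% of all genes) and 1 the reverse (Foxp1, beside 1.44%). Of these 4 genes Foxk2 alone kept its difference with equal list lengths, where the starts were Foxa1, Foxc2 and Foxk2 in the first direction and Foxb2 in the second. The Foxk2 difference rests on the window edge, with the peak 2537 bp from the start in EA-HFSCs and 3015 bp in non-EA-HFSCs. At the inner Foxk2 start described above, H3K4me3 was called in all 4 populations. At the late age, 1 Fox start had H3K4me3 in LC-HFSCs and not in non-LC-HFSCs (Foxe3, beside 0.809%) and 6 the reverse (Foxa1, Foxb1, Foxb2, Foxc2, Foxd2 and Foxl1, beside 3.57%). The late-age numbers with equal list lengths were 2 (Foxe3 and Foxl2) and 2 (Foxc2 and Foxd2). In these cut lists 18 of 20 Fox starts with H3K4me3 in LC-HFSCs had it in non-LC-HFSCs, beside 96.2% of all such genes. At the early age 20 of 23 with it in EA-HFSCs had it in non-EA-HFSCs, beside 94.3%. For H3K27me3, 5 starts had a peak in EA-HFSCs and not in non-EA-HFSCs (Foxd1, Foxd2, Foxe3, Foxi1 and Foxs1, beside 2.51%) and 1 the reverse (Foxc1, beside 5.02%). At the late age 0 had it in LC-HFSCs alone of the 2 (beside 0.0537%) and 9 in non-LC-HFSCs alone (Foxa3, Foxb1, Foxc1, Foxc2, Foxd2, Foxd4, Foxj1, Foxl1 and Foxs1, beside 8.57%). At the early age the H3K27me3 numbers with equal list lengths were 3 and 0, and at the late age 0 and 5. Of Fox starts with H3K27me3 in EA-HFSCs, 84.2% then had it in non-EA-HFSCs, beside 76.5% of all such genes. Of those with H3K27me3 in LC-HFSCs, 100% then had it in non-LC-HFSCs, beside 76.5%. With equal list lengths no share of all genes is given for the reverse directions of H3K4me3 and H3K27me3. For H3K9me3, 23 starts had a peak in EA-HFSCs and not in non-EA-HFSCs (beside 43.7% of all genes) and 0 the reverse (beside 1.24%), and at the late age 0 had it in LC-HFSCs alone of the 2 (beside 0.0894%) and 13 in non-LC-HFSCs alone (beside 11.4%). The counts with equal list lengths were 16 and 2, and the 16 include Foxa1, Foxb1 and Foxc2, which had a peak in both populations in the deposited lists. Of all genes, 3.27% then had H3K9me3 in EA-HFSCs and 0.966% in non-LC-HFSCs. Of all genes with it in EA-HFSCs, 0.546% also had it in non-EA-HFSCs, so 0 of 16 Fox starts is near the background. Across all 4 populations H3K27me3 was at 12 Fox starts in every list of the mark (Foxa1, Foxa2, Foxb2, Foxd3, Foxe1, Foxf1, Foxf2, Foxi2, Foxi3, Foxl2, Foxn4 and Foxp2, beside 3.22% of all genes) and at 13 in none (beside 81.5%). The same 12 genes had it in every list with equal list lengths (beside 1.93%), and 19 had it in none (beside 92.4%).

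In EA-HFSCs most Fox starts with H3K27me3 also had H3K9me3. Of the 24 starts with H3K27me3, 20 had H3K9me3 (83.3%, interval 64.1 to 93.3, beside 69.7% of all genes with H3K27me3), and of the 14 without H3K27me3, 6 had it (42.9%, 21.4 to 67.4, beside 41.6%). Both intervals hold the share of all genes, so no difference between the family and all genes was detectable at these numbers. The median H3K9me3 cover was 88.8% at the 26 Fox starts and 23.3% at all genes with the mark. The peaks were smaller in non-LC-HFSCs, where the 13 Fox starts with H3K9me3 had a median cover of 10.7%, close to the 10.3% of all genes, and the highest was 32.7% at Foxc2. The 3 Fox starts with H3K9me3 in non-EA-HFSCs were Foxa1 (19.4%), Foxb1 (12.9%) and Foxc2 (13.8%). All 3 were also among the 13 of non-LC-HFSCs, which were Foxa1, Foxa2, Foxb1, Foxc2, Foxd2, Foxd3, Foxd4, Foxe1, Foxf2, Foxl1, Foxl2, Foxq1 and Foxs1. The H3K9me3 list of EA-HFSCs is the longest of the 12, and the part of its depth or background in this pairing was not tested.

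**Figure D4:**
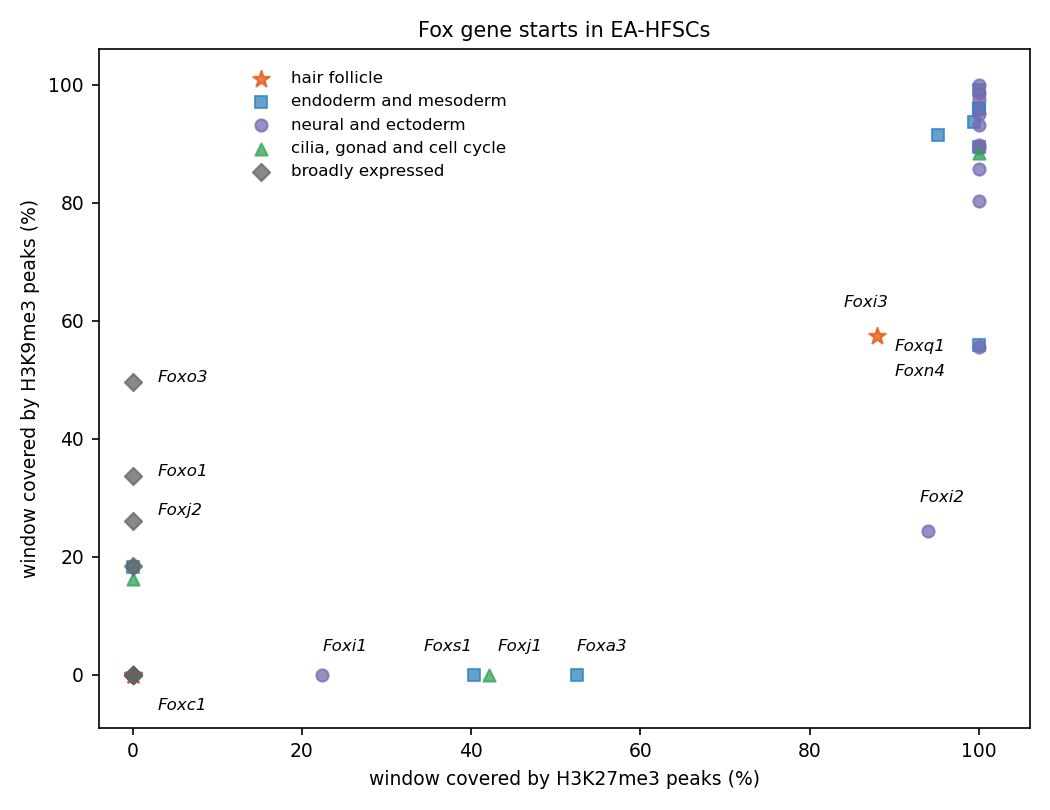
Each point is a Fox gene in EA-HFSCs, placed by the percentage of its start window covered by H3K27me3 peaks (horizontal axis) and by H3K9me3 peaks (vertical axis), with symbols for its role. Most developmental genes sit at the upper right with both covers high, the 9 broadly expressed genes sit at 0 on the horizontal axis, and Foxi1, Foxs1, Foxj1 and Foxa3 have H3K27me3 (22.4 to 52.5%) and no H3K9me3.

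Several members are neighbours and do not count as separate observations. Foxf1, Foxc2 and Foxl1 lie in 1 group on chromosome 8 (31785 and 11769 bp between starts), Foxq1, Foxf2 and Foxc1 on chromosome 13 (67646 and 180830 bp), and Foxd2 and Foxe3 on chromosome 4 (17154 bp). A single H3K27me3 peak reached the windows of both Foxc2 and Foxl1 in EA-HFSCs (21117 bp wide, score 2670), in non-EA-HFSCs (46418 bp) and in non-LC-HFSCs (19944 bp). Another reached both Foxd2 and Foxe3 in EA-HFSCs (47504 bp, score 1104) and a further one did in non-LC-HFSCs. From the start of Foxf1 to the end of Foxl1 (44644 bp), H3K27me3 covered 27004 bp in EA-HFSCs, 8320 bp in LC-HFSCs, 27511 bp in non-EA-HFSCs and 24500 bp in non-LC-HFSCs. From the start of Foxq1 to the end of Foxc1 (252466 bp) it covered 74380, 11541, 87528 and 50931 bp, and H3K9me3 covered 38166 bp in EA-HFSCs, 0 in LC-HFSCs, 1195 bp in non-EA-HFSCs and 5334 bp in non-LC-HFSCs. Within the chromosome 13 group, H3K27me3 was at Foxq1 and Foxf2 but not at Foxc1 in EA-HFSCs, at Foxf2 alone in LC-HFSCs, at all 3 in non-EA-HFSCs and at Foxf2 and Foxc1 in non-LC-HFSCs.

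Over gene bodies the counts of H3K4me3 and H3K27me3 were within 2 of those at the starts, and H3K9me3 in non-EA-HFSCs was over 8 bodies beside 3 starts. H3K4me3 lay over 30 Fox gene bodies in EA-HFSCs (63.1% of all genes), 22 in LC-HFSCs (56.0%), 28 in non-EA-HFSCs (62.2%) and 25 in non-LC-HFSCs (59.1%). H3K27me3 lay over 24 (14.7%), 12 (3.81%), 19 (17.0%) and 22 (13.4%), and H3K9me3 over 29 (51.1%), 0 (1.46%), 8 (13.4%) and 15 (22.2%), in the same order of populations. Fox genes are short, with a median length of 4314 bp beside 15427 bp for all genes, and longer genes have more room for a peak. Foxp2, the longest member at 540629 bp, had H3K27me3 over 20598 bp of its body in EA-HFSCs, 0 in LC-HFSCs, 4764 bp in non-EA-HFSCs and 232 bp in non-LC-HFSCs.

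Most Fox starts are rich in CpG. The ratio of observed to expected CpG within 500 bp of the start had a median of 0.777 over the 38 genes and 0.549 over all genes, and it was at least 0.6, the threshold for CpG-rich used here, at 27 Fox genes (71.1%) and 45.6% of all genes. The highest ratio was 1.06 at Foxo1 and the lowest 0.180 at Foxn1. By marks in EA-HFSCs, the ratio was at least 0.6 at 16 of 18 Fox starts with H3K4me3 and H3K27me3 (88.9%, median 0.802), at 9 of 12 with H3K4me3 and no H3K27me3 (75%, median 0.874), at 2 of 6 with H3K27me3 and no H3K4me3 (33.3%, median 0.566) and at 0 of 2 with neither. All genes with the same marks had medians of 0.689, 0.732, 0.388 and 0.182. Among CpG-rich starts alone, H3K27me3 was called in EA-HFSCs at 18 of 27 Fox genes (66.7%) and at 14.1% of all genes. In LC-HFSCs it was at 12 of the 27 (44.4%) and at 4.56% of all CpG-rich starts. Among the same 27, H3K4me3 was at 92.6, 63.0, 85.2 and 81.5%, beside 95.9, 89.4, 94.7 and 92.0% of all CpG-rich starts. The family thus lay below all CpG-rich starts for H3K4me3 in every population, and furthest below in LC-HFSCs. For H3K9me3 the Fox shares were 81.5, 0, 11.1 and 37.0%, beside 73.3, 0.108, 2.52 and 18.5%.

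**Figure D5:**
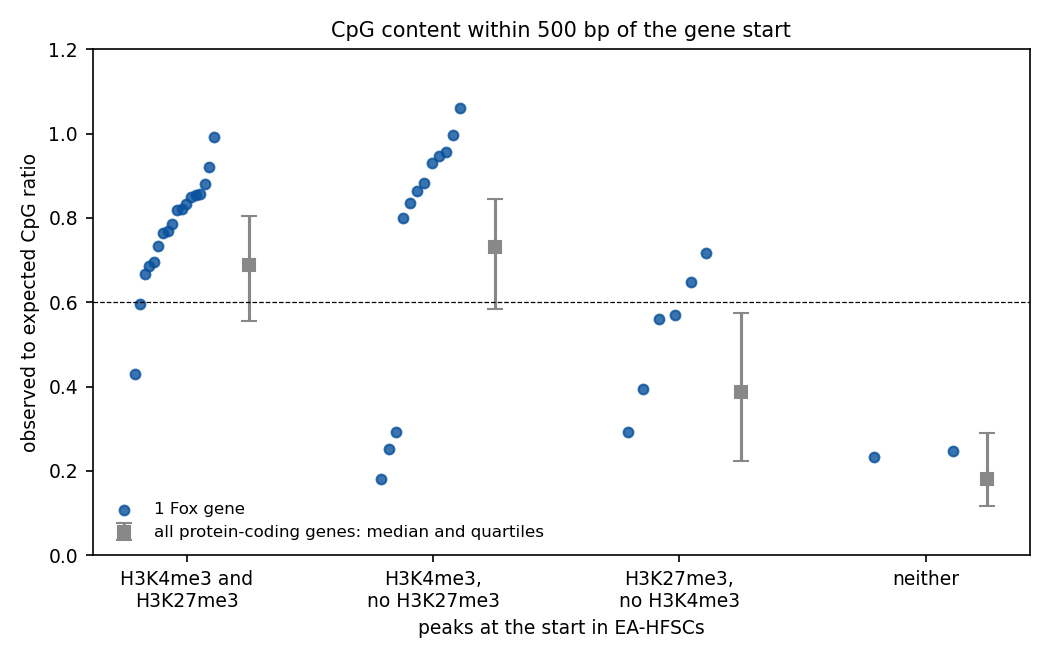
Points are Fox genes, grouped by their peaks in EA-HFSCs, with the observed to expected CpG ratio within 500 bp of the start on the vertical axis. Grey squares and bars are the median and quartiles of all protein-coding genes with the same peaks, and the dashed line is the threshold of 0.6. The 3 low points among genes with H3K4me3 and no H3K27me3 are Foxn1 (0.180), Foxk2 (0.251) and Foxh1 (0.293).

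The 250 bases before each start were searched on both strands for 2 short motifs. The forkhead core TGTTTAC was in 1 Fox promoter (Foxa1, 2.63%) and in 2.74% of all promoters, and the GC box GGGCGG was in 26 (68.4%) and in 39.6%. These 2 motifs do not overlap each other in sequence, and a match describes the letters of the window only. Exact matches alone were counted, so promoters with a variant of either motif are not included.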

How the data were processed

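Chromatin was digested to mono-nucleosomes with MNase and immunoprecipitated for H3K4me3, H3K27me3 or H3K9me3, with IgG as background. The authors aligned single-end reads to mm9 with Bowtie2, pooled replicates and used MACS with the matching IgG library as control. The submitters' processing notes also name Trimmomatic 0.22, HOMER and Cuffdiff. Each deposited list gives the position of every peak beside the score that the authors' caller gave it, here used to describe, rank or filter peaks within a list. The lowest scores correspond to p-values of 1e-05 for H3K4me3 and 0.0001 for the other marks. The lists hold no read numbers, so the depth behind a single peak and the precision it gives are unknown. The study's methods give the depth of the pooled samples as ranges and state that more reads were used for LC-HFSCs than for EA-HFSCs.

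Peaks were set against the GENCODE vM1 annotation of NCBIM37, the assembly of mm9, with Python 3.11.15 and numpy 2.4.6. An overlap of 1 bp with the window of 3000 bp to either side of the outermost gene start, or with the gene body, counted as a peak. The 733 peaks on random or unplaced sequence were not used for genes. On simulated peaks with known positions, the window step was right in 4 of 4 settings over 500 windows each. All 38 members were described, and the hair follicle genes were given in every list. The members, partner lists and marker lists were chosen with earlier results of these data known. The annotation holds 6 further protein-coding genes with a Fox symbol, of which 2 had H3K4me3 at the start in each population and 2 had H3K27me3 in non-EA-HFSCs and 1 in each other population.

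The alternatives were score thresholds of 50 and 100, windows of 1000 and 2500 bp, any transcript start, an overlap of 500 bp and equal list lengths.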

Additional observations from a re-analysis of the deposited data

Results flagged for a closer look

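At 11 combinations of gene and mark the HFSCs and non-HFSCs differed with age in opposite directions: a start peak was called in EA-HFSCs and not in LC-HFSCs, and in non-LC-HFSCs and not in non-EA-HFSCs. For H3K27me3 these were Foxd2, with 99.9% of the window covered in non-LC-HFSCs, and Foxs1, with 14.4%. For H3K9me3 the cover in non-LC-HFSCs was 19.9% at Foxa2, 6.75% at Foxd2, 11% at Foxd3, 10.7% at Foxd4, 20.7% at Foxe1, 9.88% at Foxf2, 6.82% at Foxl1, 11.1% at Foxl2 and 9.40% at Foxq1. The difference was not tested, since there is 1 list per population and mark, and except for Foxd2 H3K27me3 the peaks in non-LC-HFSCs were small. The same pattern was at 0.340% of all genes for H3K27me3 and 8.31% for H3K9me3, beside 2 and 9 of 38 Fox genes. With equal list lengths it held at Foxd2 for H3K27me3 (beside 0.237% of all genes) and for H3K9me3 (beside 0.228%) and at none of the other 9 combinations, and Foxc2 then had it for H3K9me3 and for H3K4me3 (beside 0.148%).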

How the results depend on the processing

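No paired analysis was possible because the replicates were pooled into 1 list per population and mark, which also leaves no replicate to leave out. The 19 counts at gene starts stayed within 1.5 times their value with a score of at least 50, a window of 2500 bp, any transcript start or an overlap of at least 500 bp. With a score of at least 100, H3K27me3 was at 8 Fox starts in LC-HFSCs, all 8 of them shared with EA-HFSCs, H3K9me3 was at 0 in non-EA-HFSCs and 2 in non-LC-HFSCs, and H3K4me3 with H3K27me3 was at 0 in LC-HFSCs and 8 in non-LC-HFSCs. With a window of 1000 bp, H3K9me3 was at 5 in non-LC-HFSCs. With equal list lengths, H3K9me3 was at 16 in EA-HFSCs, 0 in non-EA-HFSCs and 2 in non-LC-HFSCs, and H3K4me3 with H3K27me3 was at 8 in EA-HFSCs, 6 in non-EA-HFSCs and 6 in non-LC-HFSCs. These settings keep fewer peaks or a narrower window by construction. The 12 counts over gene bodies were run with 2 of the settings, and 3 of them moved further than that under each.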
